A study of Saccharomyces cerevisiae with 15 samples.

Results

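The alcohol dehydrogenases of the budding yeast Saccharomyces cerevisiae were followed together with the formate dehydrogenase gene FDH1 and the activator gene ADR1 on 15 Affymetrix Yeast Genome 2.0 arrays. The 10 genes (ADH1, ADH2, ADH3, ADH4, ADH5, ADH6, ADH7, SFA1, FDH1 and ADR1) were taken by name from 5449 S. cerevisiae genes that the arrays measured. All 10 were found, each as 1 probe set of the type designed for a single transcript, so that no choice between probe sets was needed. The first group, Rho0 low density, holds low density cells of a BY4741 derivative labelled Rho0, a name for cells that lack mitochondrial DNA and cannot respire. WT low density and WT high density hold the light and the dense cells of BY4741 with its mitochondrial DNA. Each group has 5 biological replicates with 1 array each. The 3 groups share the strain BY4741, a laboratory strain that is haploid, of mating type a, and carries nutritional deletions. They also share growth with shaking at 30 °C in rich medium (YPD) that began with 2% glucose, harvest on day 3, separation of cells by density and the absence of any further treatment. Low density Rho0 cells are compared with both WT fractions, and against WT high density the genotype and the fraction differ together and cannot be told apart.

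Alcohol dehydrogenases interconvert alcohols and aldehydes with NAD or NADP as the electron carrier. In yeast that grows on glucose, Adh1 reduces acetaldehyde to ethanol, the last step of fermentation. Once glucose is gone, Adh2 oxidizes the ethanol back to acetaldehyde, which feeds acetyl-CoA synthesis, gluconeogenesis and respiration. ADH2 is a classic gene of glucose repression. Its transcription needs Adr1, a zinc finger activator that also serves peroxisomal and fatty acid oxidation genes, and is helped by Cat8. The kinase Snf1 is needed for both. Sfa1 oxidizes the glutathione adduct of formaldehyde to a formate precursor, and Fdh1 oxidizes formate to carbon dioxide.

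Values are log2 signals after RMA, a method that sets all arrays to 1 distribution, so that each is relative to all other signals of its array. A background level of 2.56, the 95th percentile of probe sets taken as those of fission yeast on the same arrays, served as the floor, and all 3 group means of each member lay above it. Calls are differences with an adjusted p under 0.05 in limma (Benjamini-Hochberg over 5449 genes). The number of arrays limits the precision, and the median standard error of a difference was 0.15 log2. A lower signal in a bulk sample can stand for fewer cells that carry a transcript or for less of it in each cell, and these cannot be told apart.

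Several measures of the arrays moved with the groups. Signal from the 5′ end of 25S ribosomal RNA averaged 7.75 ± 0.27 in Rho0 low density, 11.36 ± 0.45 in WT low density and 7.87 ± 0.13 in WT high density (mean ± SD, n = 5 each). The 3′ minus 5′ signal of ACT1 was 1.61 ± 0.06 in Rho0 low density, 1.90 ± 0.12 in WT low density and 1.57 ± 0.14 in WT high density. Spiked-in poly-A RNAs gave 9.66 ± 0.24, 10.34 ± 0.24 and 10.12 ± 0.20, and setting the arrays to the same spike-in mean moved the median of all genes by 0.68, -0.23 and 0.45 in the 3 comparisons (Rho0 low density minus WT low density, WT low density minus WT high density, Rho0 low density minus WT high density). Markers of other cell states gave signal too, though not every marker in every group. The 8 sporulation markers summed to 186 to 194 in Rho0 low density, 261 to 287 in WT low density and 1173 to 1928 in WT high density (linear signal). For the 4 alpha mating type markers the sums were 547 to 788, 414 to 641 and 1072 to 1834, and for the 6 mating type a markers 2136 to 2383, 3939 to 4769 and 1684 to 2157. A sum mostly follows its brightest markers, such as SAG1 in the alpha list (mean log2 signal 9.34, 8.97 and 10.27). Single markers could go the other way. In Rho0 low density against WT low density, 4 sporulation markers were called higher and 1 lower. For alpha markers these counts were 0 and 2, and for mating type a markers 2 and 3, against 44.6% and 22.7% of all genes. In WT low density against WT high density they were 0 and 7 for sporulation, 0 and 4 for alpha and 5 and 1 for mating type a. The shares of all genes were 26.2% and 41.1% there. In Rho0 low density against WT high density the same lists gave 2 and 4, 0 and 4, and 4 and 1, against 37.9% and 34.4%. In each of these lists 0 markers were below the background level in all groups, but some were below it in part of the groups. MF(ALPHA)1 averaged 2.24 in Rho0 low density and 2.26 in WT low density, and SPS1 2.00 and 2.20. SPO11 averaged 2.33 in WT low density and 2.55 in WT high density, SPR3 averaged 2.18 and 2.52, and BAR1 averaged 2.40 in WT high density. The part of these measures in the results below was not tested. Results under the spike-in scaling are given mainly where the call of a member or a count of calls moved. That scaling moves the difference of every gene in a comparison by the same amount, also where no call moved. None of 22 genes on mitochondrial DNA was named in the annotation, so the Rho0 label was not checked here.

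Most members differed between groups, as did most genes of the array. In Rho0 low density against WT low density 8 of 10 members were called, 2 higher and 6 lower, against 67.3% of all genes called (44.6% higher and 22.7% lower). WT low density against WT high density also gave 8 calls, 3 higher and 5 lower, against 67.2% of all genes (26.2% higher and 41.1% lower). Rho0 low density against WT high density gave 7, 3 higher and 4 lower, against 72.4% (37.9% higher and 34.4% lower). A share of called members near that of all genes says nothing particular about the members, so the sizes of their differences are set against those of all genes below. The groups' values did not overlap for 9, 7 and 7 members, against 57.2%, 47.9% and 58.9% of all genes. The median difference of the members was -0.71, -0.19 and 0.20 log2, against medians of all genes of 0.25, -0.17 and 0.03. Each group enters 2 of the comparisons, so these are not independent of each other.

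**Figure D1:**
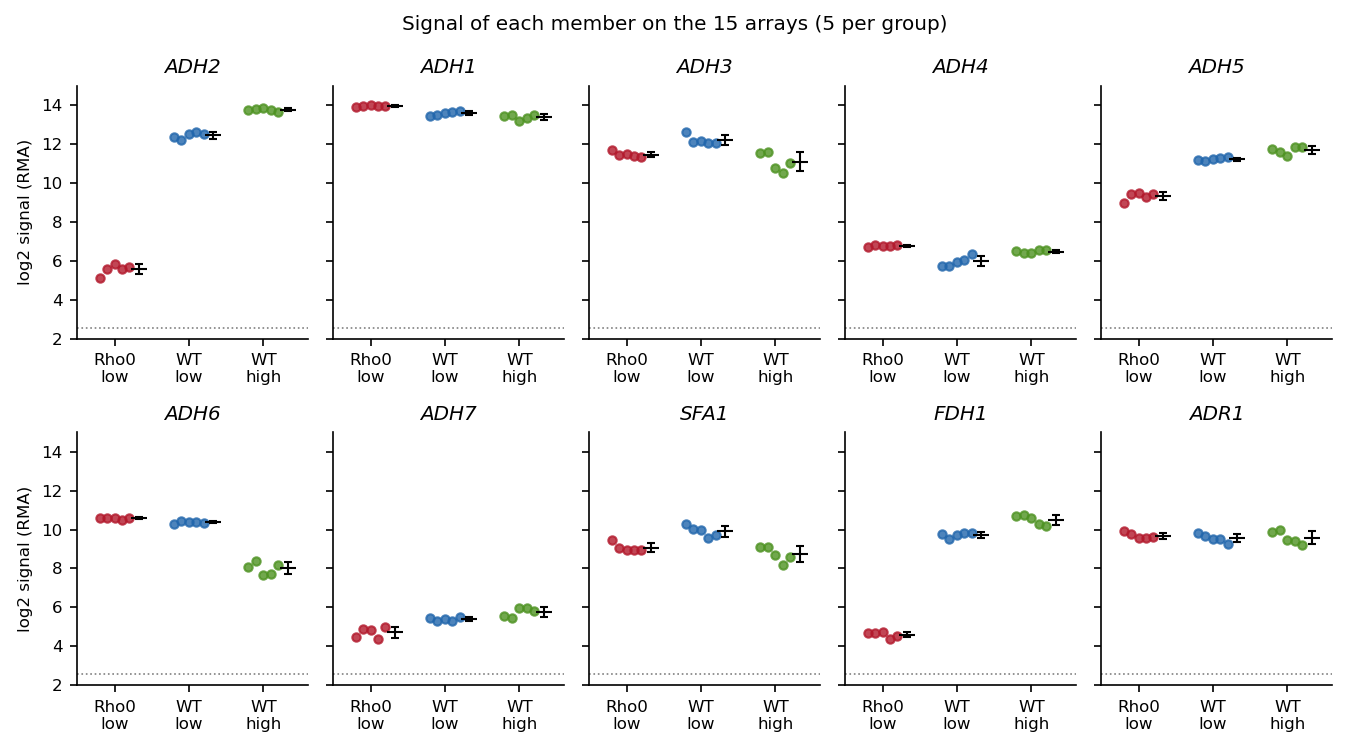
Signal of the 10 members on each array (y axis, log2 after RMA), with Rho0 low density on the left, WT low density in the middle and WT high density on the right of each panel. Points are the 5 arrays of a group, the bar beside them is mean ± SD, and the dotted line is the background level of 2.56. ADH2 and FDH1 lie far lower on the Rho0 low density arrays, ADH6 lies lower on the WT high density arrays, and ADR1 lies between 9.19 and 9.97 on all 15.

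ADH2, the ethanol-oxidizing isoenzyme, was far lower in Rho0 low density cells than in either WT fraction. It read 5.12, 5.60, 5.86, 5.58 and 5.68 on the Rho0 low density arrays. The WT low density arrays read 12.36, 12.24, 12.51, 12.65 and 12.52. On the WT high density arrays it read 13.74, 13.83, 13.87, 13.78 and 13.66. No 2 groups overlapped, and the gap between the Rho0 arrays and the others was many times the spread within any group. ADH2 (YMR303C) was lower by 119-fold in Rho0 low density than in WT low density (95% interval 98.3 to 143), a difference of -6.89 ± 0.13 log2 (± SE, adjusted p = 7.97e-18). Set against WT high density it was lower by 296-fold (245 to 356), a difference of -8.21 ± 0.13 (adjusted p = 3.29e-19). In both comparisons this was rank 1 from the lowest of 5449 differences. Falls of at least 5 log2 were called for 7 genes (0.128%) in Rho0 low density against WT low density, for 12 (0.22%) against WT high density and for 1 (0.0184%) between the WT fractions. ADH2 also differed between the WT fractions, lower in the light cells by 2.49-fold (2.07 to 3.01), a difference of -1.32 ± 0.13 (adjusted p = 4.94e-08). That difference was rank 528 from the lowest, so it was one of many of its size. The span of its group means, 8.21 log2, was exceeded by 0 genes.

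ADH2 and ADH1 are near-identical paralogs, and the ADH2 signal of the Rho0 arrays, 5.12 to 5.86, stood above background on arrays where ADH1 read 13.92 to 14.01. How much of that signal comes from ADH1 RNA was not tested. The ADH2 signal of WT high density cells lay near the top of the values in the table, as did ADH1 on all 15 arrays. Compression of signals there, which would make differences of both genes look smaller, was not tested either.

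ADH1 (YOL086C), the main fermentative isoenzyme, read near the top of the scale in all groups, where small differences may be compressed. It read 13.92, 13.95, 14.01, 13.98 and 13.97 in Rho0 low density. The 5 WT low density arrays read 13.48, 13.51, 13.62, 13.65 and 13.71. In WT high density they read 13.46, 13.50, 13.17, 13.36 and 13.50. The Rho0 arrays were the highest throughout, while the WT fractions overlapped. ADH1 was higher in Rho0 low density than in WT low density by 0.37 ± 0.10 log2 (adjusted p = 0.0028), a difference close to the median of all genes and not called when the S. cerevisiae genes were quantile normalized (0.14, adjusted p = 0.266) or with all arrays at the same S. cerevisiae median (0.11, 0.387). Setting the arrays to the same spike-in mean moves this difference the other way, by 0.68 log2. Against WT high density it was higher by 0.57 ± 0.10 (adjusted p = 4.52e-05), or 1.48-fold. Between WT low density and WT high density the difference was 0.19 ± 0.10 (95% interval -0.01 to 0.40, adjusted p = 0.0913). It was called there with a trended and robust variance (adjusted p = 0.0214), after quantile normalization (0.27, 0.0333) and at the same S. cerevisiae median (0.32, 0.0151). At the same spike-in mean ADH1 was not called there. That scaling moves every difference between these groups by -0.23 log2, more than the size of this one.

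ADH3 (YMR083W), the isoenzyme of the mitochondrial matrix, was highest in the light WT cells. It read 11.68, 11.43, 11.51, 11.37 and 11.36 in Rho0 low density. In WT low density the arrays read 12.65, 12.09, 12.15, 12.06 and 12.08. Those of WT high density spread more widely, at 11.58, 11.60, 10.80, 10.51 and 11.06. Every WT low density array lay above all others, while the Rho0 arrays overlapped with the upper end of WT high density. ADH3 was lower in Rho0 low density than in WT low density by 1.66-fold (-0.74 ± 0.19, adjusted p = 0.00182), a call that was lost with the arrays at the same spike-in mean (-0.05, adjusted p = 0.835). It was higher in WT low density than in WT high density by 2.14-fold (1.10 ± 0.19, adjusted p = 4.05e-05). Rho0 low density minus WT high density was 0.36 ± 0.19 (-0.03 to 0.75, adjusted p = 0.0862). The order of its levels was thus WT low density first, with the other groups not told apart by this test. That last difference was called without WT high density replicate 1 (0.48, adjusted p = 0.0246) or replicate 2 (0.49, 0.0229), after quantile normalization (0.42, 0.0393) and at the same spike-in mean (0.82, 0.0028).

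ADH4 (YGL256W), an isoenzyme of a different, metal-activated family that is known to be induced by zinc shortage, was lowest in the light WT cells, where ADH3 was highest. It read 6.69, 6.80, 6.78, 6.76 and 6.82 in Rho0 low density. WT low density gave 5.76, 5.75, 5.94, 6.04 and 6.37. WT high density gave 6.48, 6.40, 6.38, 6.57 and 6.55. The 3 groups did not overlap, although the highest WT low density array and the lowest WT high density array were almost level. ADH4 was higher in Rho0 low density than in WT low density by 1.74-fold (0.80 ± 0.12, adjusted p = 8.09e-06) and lower in WT low density than in WT high density by 1.42-fold (-0.50 ± 0.12, adjusted p = 0.001). It was higher in Rho0 low density than in WT high density by 0.30 ± 0.12 (adjusted p = 0.0298). That call was lost at the same S. cerevisiae median (0.16, adjusted p = 0.26), after quantile normalization (0.15, 0.26), and without Rho0 low density replicate 2 (0.0554), 3 (0.0505) or 5 (0.0581) or WT high density replicate 2 (0.0569) or 3 (0.0562). The scaling to the same spike-in mean moves it the other way, by 0.45 log2.

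ADH5 (YBR145W), a minor cytosolic isoenzyme related to ADH1 and ADH2, followed the direction of ADH2 with smaller differences. It read 8.98, 9.42, 9.49, 9.29 and 9.44 in Rho0 low density. WT low density arrays read 11.17, 11.12, 11.22, 11.28 and 11.32. WT high density arrays read 11.78, 11.58, 11.42, 11.86 and 11.88. All 3 groups were separate, with the Rho0 arrays lowest. ADH5 was lower in Rho0 low density by 3.72-fold against WT low density (-1.90 ± 0.12, adjusted p = 2.1e-10) and by 5.2-fold against WT high density (-2.38 ± 0.12, adjusted p = 3.17e-12). Between the WT fractions it was lower in the light cells by 1.4-fold (-0.48 ± 0.12, adjusted p = 0.00209). The span of its group means was exceeded by 9.18% of genes.

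ADH6 and ADH7 encode NADPH-dependent enzymes of the cinnamyl alcohol dehydrogenase family, which reduce many aldehydes. ADH6 was higher in Rho0 low density cells than in WT high density cells, and ADH7 was lower. ADH6 (YMR318C) read 10.61, 10.58, 10.61, 10.48 and 10.60 in Rho0 low density. In WT low density the arrays read 10.31, 10.45, 10.37, 10.37 and 10.35. WT high density arrays read 8.09, 8.38, 7.68, 7.73 and 8.19. The low density arrays of both genotypes were close together, and every WT high density array lay far below them. ADH6 was higher by 5.13-fold (4.27 to 6.16) in WT low density than in WT high density (2.36 ± 0.13, adjusted p = 1.96e-11), rank 66 from the highest of 5449. Against the same WT high density arrays, Rho0 low density was higher by 5.92-fold (2.56 ± 0.13, adjusted p = 1.52e-12). Rho0 low density minus WT low density was 0.21 ± 0.13 (-0.06 to 0.47, adjusted p = 0.155), near the median of all genes. Although not called, its arrays did not overlap, and it was called in a fit of those 10 arrays alone (adjusted p = 0.0322), at the same S. pombe median (0.31, 0.0355) and at the same spike-in mean (0.89, 0.000132).

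ADH7 (YCR105W) was lowest in the Rho0 cells. It read 4.48, 4.90, 4.81, 4.35 and 5.0 in Rho0 low density. WT low density arrays read 5.46, 5.31, 5.39, 5.28 and 5.51. In WT high density they read 5.54, 5.44, 5.98, 5.99 and 5.79. The Rho0 arrays lay below all others and the WT fractions overlapped. ADH7 was lower in Rho0 low density by 1.6-fold against WT low density (-0.68 ± 0.14, adjusted p = 0.000365) and by 2.06-fold against WT high density (-1.04 ± 0.14, adjusted p = 2.51e-06). With the arrays at the same spike-in mean the first of these was 0.000558, no longer a fall. The difference between the WT fractions, -0.36 ± 0.14 (adjusted p = 0.0338), was close to the threshold. It was not called after quantile normalization (-0.24, adjusted p = 0.145), at the same S. cerevisiae median (-0.24, 0.164), or without WT low density replicate 2 (0.0655), 3 (0.0534) or 4 (0.0711) or WT high density replicate 3 (0.084), 4 (0.0851) or 5 (0.0589).

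**Figure D2:**
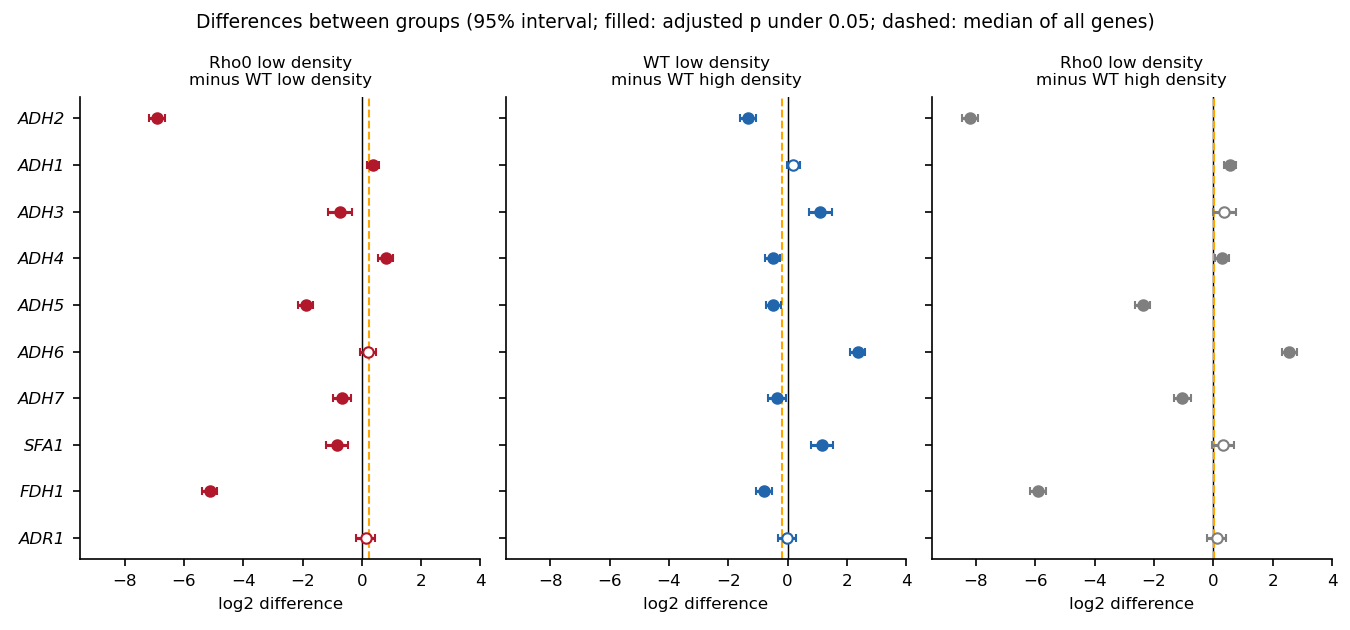
Differences between groups in log2 (x axis) for each member, with the first group of each panel title minus the second. Points are limma estimates with 95% intervals from 5 arrays per group, filled where the adjusted p was under 0.05, and the dashed line is the median difference of all 5449 genes. ADH2 at -6.89 and -8.21 and FDH1 at -5.13 and -5.91 lie far left in the 2 panels with Rho0 cells, while the other members stay between -2.38 and 2.56 in all panels.

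The change of ADH2 was set against that of each other isoenzyme, SFA1 included, by taking the ADH2 minus isoenzyme signal within each array and comparing groups. These are differences of log2 signals between probe sets, so that their group means hold no comparison of levels and their change between groups is what counts. In Rho0 low density minus WT low density the change of ADH2 exceeded, downward, that of ADH5 by the least, -4.99 ± 0.06 (± SE), and that of ADH4 by the most, -7.69 ± 0.13. Against ADH1 it was -7.26 ± 0.12. For WT low density minus WT high density the smallest excess was -0.82 ± 0.11 against ADH4 and the largest -3.68 ± 0.18 against ADH6. The corresponding value was -0.84 ± 0.13 for ADH5, -0.96 ± 0.14 for ADH7 and -1.51 ± 0.10 for ADH1. In Rho0 low density minus WT high density the excess ran from -5.83 ± 0.13 against ADH5 to -10.77 ± 0.20 against ADH6. In each of the 21 tests (7 isoenzymes in 3 comparisons) all 5 arrays of the first group lay below all 5 of the second. The exact two-sided permutation p was 0.00794 in every one, the smallest that 5 against 5 arrays can give, and 0.00794 after adjustment over the 21 tests. All 21 reuse the same ADH2 values and are not independent. In both comparisons with Rho0 cells ADH2 had the lowest of 5449 differences, so the outcome of those tests was all but fixed in advance. Their p-values add nothing to the sizes given. An equal shift of all signals on an array cancels in the ADH2 minus isoenzyme values.

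**Figure D3:**
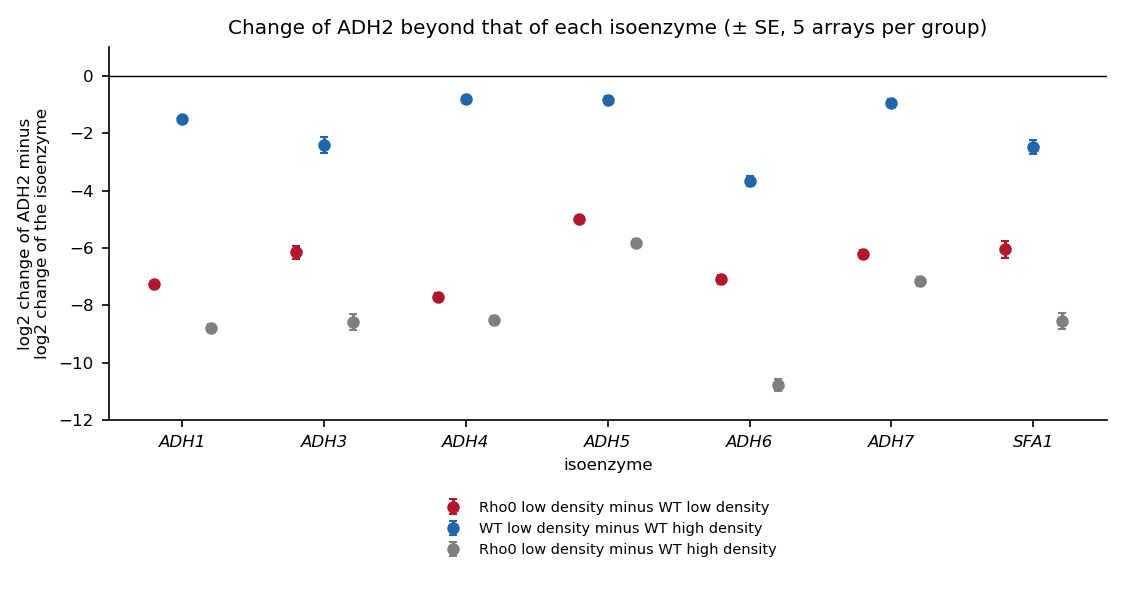
Log2 change of ADH2 minus the log2 change of each other isoenzyme (y axis) in the 3 comparisons, as means ± SE from 5 arrays per group. All 21 points lie below 0, from -0.82 for ADH4 between the WT fractions to -10.77 for ADH6 between Rho0 low density and WT high density.

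SFA1 and FDH1, which act in turn on the way from formaldehyde to carbon dioxide, were called in opposite directions between the WT fractions. SFA1 (YDL168W) read 9.45, 9.04, 8.95, 8.95 and 8.94 in Rho0 low density. In WT low density the arrays read 10.30, 10.02, 9.96, 9.57 and 9.71. WT high density arrays read 9.11, 9.12, 8.71, 8.19 and 8.59. As with ADH3, the WT low density arrays lay above all others and the other groups overlapped. SFA1 was lower in Rho0 low density than in WT low density by 1.79-fold (-0.84 ± 0.18, adjusted p = 0.000397), a call lost at the same spike-in mean (-0.16, adjusted p = 0.543). It was higher in WT low density than in WT high density by 2.24-fold (1.16 ± 0.18, adjusted p = 1.36e-05). Rho0 low density minus WT high density was 0.32 ± 0.18 (-0.05 to 0.70, adjusted p = 0.112). This was called without WT high density replicate 1 (0.41, adjusted p = 0.0479) or replicate 2 (0.42, 0.0479) and at the same spike-in mean (0.78, 0.00628).

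FDH1 (YOR388C) was, after ADH2, the member with the widest range. It read 4.66, 4.67, 4.73, 4.39 and 4.53 in Rho0 low density. WT low density arrays read 9.79, 9.49, 9.71, 9.83 and 9.82. WT high density arrays read 10.71, 10.77, 10.58, 10.29 and 10.20. The 3 groups were separate, and the Rho0 arrays were far below the rest. FDH1 was lower in Rho0 low density by 35.1-fold (29.2 to 42.3) against WT low density (-5.13 ± 0.13, adjusted p = 3.52e-16, rank 7 from the lowest) and by 60.3-fold (50.1 to 72.6) against WT high density (-5.91 ± 0.13, adjusted p = 2.54e-17, rank 3). Among the WT arrays it was lower in the light cells by 1.72-fold (-0.78 ± 0.13, adjusted p = 2.83e-05, rank 1247). The span of its group means, 5.91 log2, was exceeded by 3 genes.

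The other measured genes of formaldehyde use were 3, GSH1 and GSH2, which make the glutathione that formaldehyde binds to, and YJL068C. In Rho0 low density against WT low density all 3 were called higher and 0 lower, against 44.6% of all genes higher and 22.7% lower, with GSH2 at 1.27 ± 0.16 (adjusted p = 9.64e-07) and YJL068C at 1.17 ± 0.11 (adjusted p = 4.13e-08). Between the WT fractions GSH1 was lower in the light cells by 1.18 on the log2 scale (-1.18 ± 0.23, adjusted p = 0.00018), and 2 genes were called higher, YJL068C among them (0.50 ± 0.11, adjusted p = 0.000778). Of all genes, 41.1% were lower and 26.2% higher there. The count of 2 higher genes was 0 at the same spike-in mean and 1 at the same S. pombe median, in a fit of the 10 arrays alone, and without any 1 of WT low density replicates 1, 3 and 4 or WT high density replicates 1, 2 and 3. Set against WT high density, Rho0 low density was higher for GSH2 (1.67 ± 0.16, adjusted p = 1.42e-08) and YJL068C (1.67 ± 0.11, adjusted p = 1.5e-10), against 37.9% of all genes higher and 34.4% lower. GSH1 (-0.30, adjusted p = 0.253) was not called there, but was called lower without Rho0 low density replicate 1.

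ADR1 (YDR216W), the activator of ADH2, did not differ detectably between groups. It read 9.92, 9.75, 9.57, 9.57 and 9.64 in Rho0 low density. In WT low density the arrays read 9.82, 9.66, 9.49, 9.53 and 9.28. WT high density arrays read 9.87, 9.97, 9.46, 9.41 and 9.19. All 3 groups overlapped. The differences were 0.13 ± 0.15 for Rho0 low density minus WT low density (95% interval -0.18 to 0.44, adjusted p = 0.448), -0.02 ± 0.15 for WT low density minus WT high density (-0.34 to 0.29, 0.905) and 0.11 ± 0.15 for Rho0 low density minus WT high density (-0.20 to 0.42, 0.519). The span of its group means was exceeded by 98.1% of genes. At the same spike-in mean, which raises all Rho0 values, ADR1 was called higher in Rho0 low density against WT low density (0.81, adjusted p = 0.00137) and against WT high density (0.56, 0.0231), and these lay near the shifts of the median of all genes. Transcript level is one of several controls of Adr1, whose activity is known to depend also on phosphorylation and on binding by 14-3-3 proteins, and protein was not measured.

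Of 17 other genes listed as regulators of ADH2 or of Adr1-dependent genes (the Snf1 kinase and its partners, its upstream kinases, the phosphatase Glc7 and its subunit Reg1, 14-3-3 proteins, Cat8 and others), 10 were called higher in Rho0 low density than in WT low density and 0 lower, against 44.6% of all genes higher and 22.7% lower. The list median was 0.52, against 0.25 for all genes. GAL83, a beta subunit of the Snf1 kinase complex, was higher by 3.36-fold (1.75 ± 0.23, adjusted p = 2.74e-06) and SNF4, its activating subunit, by 2.3-fold (1.20 ± 0.13, adjusted p = 2.66e-07). At the same spike-in mean the higher count was 16, and 1 regulator was called lower after quantile normalization, at the same S. cerevisiae median or without WT low density replicate 5. WT low density cells had 6 of these regulators higher and 7 lower than WT high density cells, against 26.2% and 41.1% of all genes. BMH2, a 14-3-3 protein, was lower by 3.56-fold (-1.83 ± 0.30, adjusted p = 2.65e-05), and PIP2, an activator of fatty acid oxidation genes, by 2.33-fold (-1.22 ± 0.16, adjusted p = 2.19e-06). The count of 6 was 3 at the same spike-in mean. Against WT high density, 8 were higher and 4 lower in Rho0 low density, against 37.9% and 34.4% of all genes, and the count of 4 was 1 at the same spike-in mean. HXK2, the hexokinase with a part in glucose repression, was higher by 3.3-fold (1.72 ± 0.15, adjusted p = 5.41e-09), and SNF4 by 2.96-fold (1.57 ± 0.13, adjusted p = 4e-09).

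Genes known to need Adr1 for their induction after glucose were mostly lower where ADH2 was lower, although not all of them. Of 14 such genes other than the members, 8 were lower and 2 higher in Rho0 low density than in WT low density, against 22.7% of all genes lower and 44.6% higher. The list median was -1.05 and the differences ran from -4.85 to 1.09. ADY2, an acetate transporter, averaged 7.95 ± 0.29 in Rho0 low density and 12.80 ± 0.06 in WT low density (SD, n = 5 each), lower by 28.9-fold (-4.85 ± 0.14, adjusted p = 2.47e-15). POX1, the acyl-CoA oxidase of peroxisomal fatty acid oxidation, averaged 6.91 ± 0.24 and 10.64 ± 0.10 in the same order, lower by 13.2-fold (-3.73 ± 0.12, adjusted p = 1.37e-14). Among the WT arrays 11 of 14 were lower in the light cells and 1 higher, against 41.1% of all genes lower and 26.2% higher, with a list median of -1.22. POX1 was lower by 4.06-fold (-2.02 ± 0.12, adjusted p = 6.49e-11) and PEX11, which acts in peroxisome division, by 3.91-fold (-1.97 ± 0.12, adjusted p = 7.44e-11). Set against WT high density 11 were lower and 3 higher in Rho0 low density, against 34.4% of all genes lower and 37.9% higher, with a median of -1.96. POX1 was lower there by 53.7-fold (-5.75 ± 0.12, adjusted p = 1.99e-17) and ADY2 by 38.2-fold (-5.26 ± 0.14, adjusted p = 2.94e-16). The count of 2 higher genes was 1 at the same S. cerevisiae median and without any 1 of Rho0 low density replicates 1, 2 and 4 or WT low density replicates 2, 3, 4 and 5, and was 5 at the same spike-in mean. The single gene higher between the WT fractions was not called at the same spike-in mean.

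Among 9 genes known to need Cat8, gluconeogenic and glyoxylate cycle genes among them, 4 were lower and 1 higher in Rho0 low density than in WT low density, against 22.7% of all genes lower and 44.6% higher (list median -0.66, all genes 0.25). The higher gene was REG2, which encodes no enzyme of these pathways. FBP1, fructose-1,6-bisphosphatase, averaged 4.98 ± 0.21 in Rho0 low density and 8.86 ± 0.30 in WT low density, lower by 14.7-fold (-3.88 ± 0.17, adjusted p = 9.09e-13). MLS1, malate synthase, was lower by 6.69-fold (-2.74 ± 0.19, adjusted p = 4.81e-10). The count of 4 was 7 at the same S. cerevisiae median and 2 at the same spike-in mean, where 4 were higher. Between the WT fractions 4 were lower and 2 higher in the light cells, close to the 41.1% of all genes lower and 26.2% higher. The higher genes were PCK1, phosphoenolpyruvate carboxykinase (2.28 ± 0.20, adjusted p = 1.38e-08), and REG2, a regulatory subunit of the phosphatase Glc7 (1.82 ± 0.12, adjusted p = 2.77e-10). Rho0 low density against WT high density gave 5 lower and 2 higher, against 34.4% and 37.9% of all genes, with FBP1 lower by 19.1-fold (-4.26 ± 0.17, adjusted p = 8.4e-14) and MLS1 by 15-fold (-3.91 ± 0.19, adjusted p = 1.27e-12).

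The enzymes that make or use acetaldehyde, the partner of ethanol in the Adh reaction, were called in both directions in each comparison. Of 10 genes, 2 of which (ACS1 and ALD4) also stand in the Adr1 list, 7 were higher and 2 lower in Rho0 low density than in WT low density, against 44.6% and 22.7% of all genes. ALD6, the cytosolic acetaldehyde dehydrogenase, was higher by 2.63-fold (1.39 ± 0.13, adjusted p = 2.43e-08), and PDC5, a pyruvate decarboxylase, by 2.5-fold (1.32 ± 0.11, adjusted p = 7.2e-09). The count of 2 lower genes was 1 at the same S. pombe median and 0 at the same spike-in mean. WT low density cells had 3 of these enzymes higher and 4 lower than WT high density cells, near the 26.2% and 41.1% of all genes, with the pyruvate decarboxylases PDC6 (-2.30 ± 0.18, adjusted p = 2.38e-09) and PDC1 (-1.64 ± 0.15, adjusted p = 1.67e-08) lower. PDC6 averaged 2.57 in WT low density, at about the background level. Against WT high density 5 were higher and 4 lower in Rho0 low density, also near the shares of all genes (37.9% and 34.4%), and the count of 4 was 2 at the same spike-in mean. ACS2, an acetyl-CoA synthetase, was higher by 6.58-fold (2.72 ± 0.14, adjusted p = 1.82e-12) and ALD6 by 5.73-fold (2.52 ± 0.13, adjusted p = 2.85e-12).

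**Figure D4:**
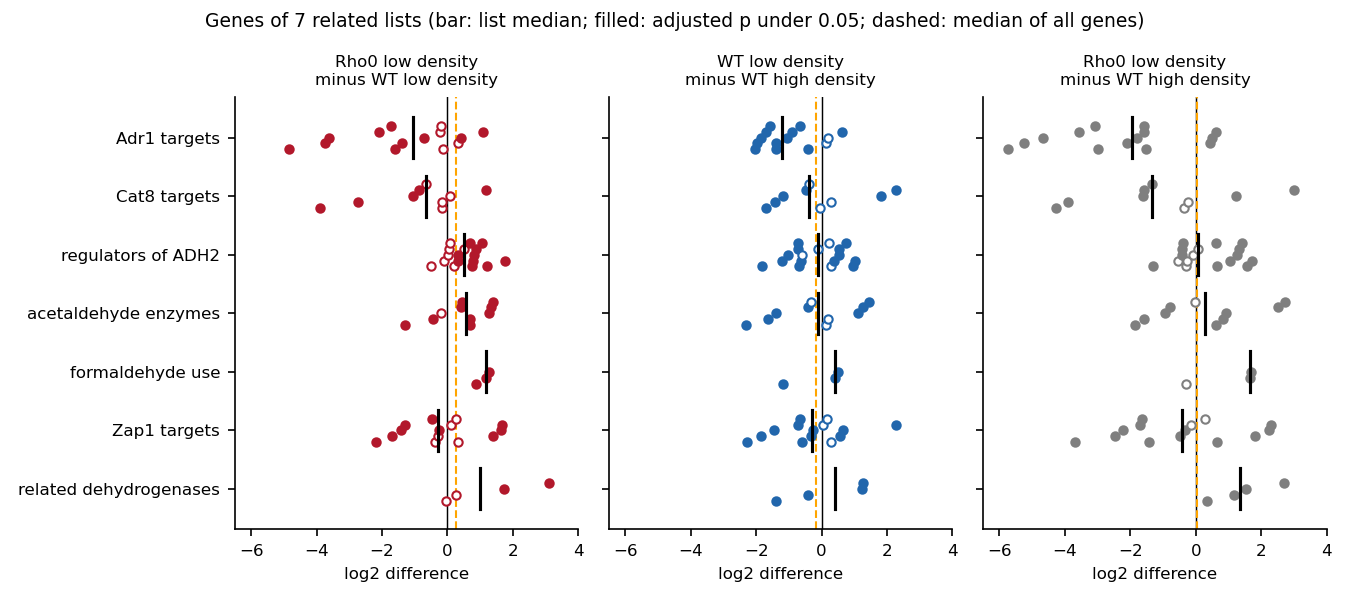
Log2 differences (x axis) of the genes in 7 lists related to the members (y axis), with the first group of each panel title minus the second. Each point is a gene, filled where its adjusted p was under 0.05, black bars are list medians and the dashed line is the median of all genes. The Adr1 targets have medians of -1.05, -1.22 and -1.96, while regulators of ADH2 have medians of 0.52, -0.12 and 0.08.

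Zinc bears on several members, since most Adh enzymes bind it and the zinc sensor Zap1 is known to raise ADH4 and to lower ADH1 and ADH3 in zinc shortage. Of 14 Zap1 targets, 3 were higher and 6 lower in Rho0 low density than in WT low density, against 44.6% and 22.7% of all genes. IZH1 and IZH2, membrane proteins of zinc homeostasis, were lower by 4.58-fold (-2.19 ± 0.12, adjusted p = 1.17e-11) and 3.26-fold (-1.70 ± 0.14, adjusted p = 5.25e-09). The count of 3 was 6 at the same spike-in mean. Among the WT arrays 3 were higher and 8 lower in the light cells, against 26.2% and 41.1% of all genes. The high-affinity zinc transporter ZRT1, the gene next to ADH4, was lower by 4.85-fold (-2.28 ± 0.17, adjusted p = 1.59e-09), and the low-affinity metal transporter FET4, next to ADH6, was higher by 4.83-fold (2.27 ± 0.12, adjusted p = 2.11e-11). The count of 3 was 1 at the same spike-in mean. Set against WT high density 4 were higher and 8 lower in Rho0 low density, against 37.9% and 34.4% of all genes, with ZRT1 at -3.69 ± 0.17 (adjusted p = 7.35e-13) and IZH1 at -2.46 ± 0.12 (adjusted p = 7.96e-13). ADH4 was thus higher in Rho0 low density than in either WT group where ZRT1 was lower, although its call against WT high density depends on the scaling, and both were lower in WT low density than in WT high density.

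Other medium-chain dehydrogenases outside the ADH names were measured for 4 of 5 genes on the list. Rho0 low density had 2 higher and 0 lower than WT low density, against 44.6% of all genes higher and 22.7% lower. SOR2, related to sorbitol dehydrogenases, was higher by 8.69-fold (3.12 ± 0.18, adjusted p = 5.29e-11), but its probe set is of a type that may bind related genes. XYL2, xylitol dehydrogenase, was higher by 3.33-fold (1.74 ± 0.10, adjusted p = 4.15e-11). The count of 2 was 4 at the same spike-in mean. Between the WT fractions 2 were higher, BDH1 among them, and 2 lower, XYL2 among them, against 26.2% and 41.1% of all genes. BDH1, a butanediol dehydrogenase, was at 1.27 ± 0.13 (adjusted p = 7.95e-08) and XYL2 at -1.40 ± 0.10 (adjusted p = 7.53e-10). The lower count was 1 in a fit of the 10 arrays alone, after quantile normalization, at the same S. cerevisiae median, and without any 1 of Rho0 low density replicates 2, 3 and 4, WT low density replicates 2 and 4 or WT high density replicates 3, 4 and 5. Against WT high density all 4 were higher in Rho0 low density, against 37.9% of all genes, with SOR2 at 2.69 ± 0.18 (adjusted p = 1.56e-10) and BDH1 at 1.53 ± 0.13 (adjusted p = 3.09e-09).

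The genes whose profile was most like that of a member were found by the root mean square difference of centred log2 signals over the 15 arrays, among 4778 genes with a standard name and a group mean above background. The nearest to ADH2 was PUT4, a proline permease, at 0.76 log2. It was followed by OPT2, an oligopeptide transporter (1.11), PDR12, an exporter of weak acids (1.17), ADY2 (1.25) and PTR2, a peptide transporter (1.29). FDH1 stood at 0.999 from ADH2. PUT4 averaged 4.92 ± 0.12 in Rho0 low density, 10.20 ± 0.14 in WT low density and 11.65 ± 0.25 in WT high density (SD, n = 5 each). For PTR2 the same order gave 4.40 ± 0.27, 10.52 ± 0.17 and 9.72 ± 0.62, so that, unlike ADH2, it was higher in the light WT cells than in the dense ones (0.79 ± 0.22, adjusted p = 0.00436). OPT2 did not differ detectably between the WT fractions (-0.10 ± 0.16, adjusted p = 0.601).

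FDH1 had closer neighbours in profile than ADH2, but this distance grows with the span of a gene, and no gene had a wider span than ADH2. ADY2 stood at 0.36 log2, PDR12 at 0.37 and PUT4 at 0.39. PDR12 averaged 6.94 ± 0.21 in Rho0 low density, 11.66 ± 0.41 in WT low density and 12.58 ± 0.05 in WT high density. ADR1, being nearly level, was nearest to ERG7, lanosterol synthase (0.14), YME2, a mitochondrial inner membrane protein (0.14), and NHP6A, a chromatin protein (0.15). ADH2 stood at 3.67 from ADR1, and FDH1 at 2.68.

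**Figure D5:**
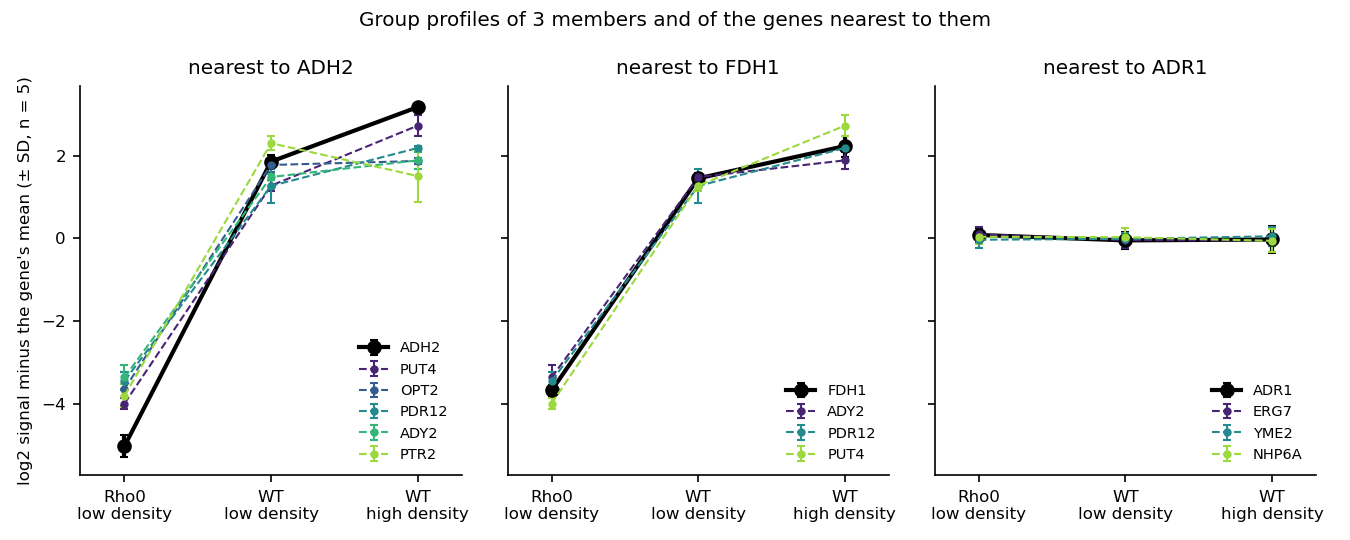
Group means of ADH2, FDH1 and ADR1 (black) and of the genes nearest to each, as log2 signal minus the gene's mean over groups (y axis), from Rho0 low density on the left to WT high density on the right, with bars of ± SD over 5 arrays. Since they were chosen for likeness on these same arrays, the genes near ADH2 and FDH1 are lowest in Rho0 low density and those near ADR1 stay level. PTR2 is highest in WT low density.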

How the data were processed

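RNA of 15 samples was measured on 1 array each. The authors deposited log2 signals. The submitters' processing notes name RMA and Affymetrix Expression Console, with versions not given in the sources used here. Biotin labelling started from 100 ng of total RNA, per the labels. The table held 10928 probe sets. The given annotation named 1 gene for 7244, several for 1 and none for 3683, and 5498 of the 7244 matched S. cerevisiae genes in a RefSeq table, used for names and gene order. The other 1746 were read as fission yeast (S. pombe) probe sets. Where several probe sets named the same gene (47 genes), the one with the highest mean over the 15 arrays was kept, which gave 5449 genes. The closest 2 arrays differed by 0.209 log2 (root mean square), so that none was a duplicate. Without a genome build in the labels, coordinates and sequences were not used here.

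Group means were fitted to all arrays with limma 3.58.1 (R 4.3.3; lmFit and eBayes, 12 residual degrees of freedom), p adjusted by Benjamini and Hochberg over 5449 genes and called under 0.05. ADH2 minus isoenzyme values were compared by exact two-sided permutation over 252 splits. Where the labels say only biological replicate, p-values measure the spread between these samples. The members, the 7 lists, the markers and the tests were chosen with earlier results of these data known. The lists were written from general knowledge of the pathways. Named are the members, from each list and comparison the 2 called genes with the largest difference either way, and the genes nearest in profile to ADH2 (5), FDH1 (3) and ADR1 (3). On simulated data (Rho0 low density against WT low density, 5449 genes, 200 of them changed) 52% of changes of 0.5 log2 were recovered, 86% of those of 1 and 100% of those of 2 or 3, with 6 false among 175 calls. The simulated noise was independent between genes and few genes changed, whereas 67.3% of genes were called in the data. These rates therefore need not hold for the data. Alternatives were a fit of the 10 arrays compared, a block for the replicate number, a trended and robust variance, genes above background alone, quantile normalization of the S. cerevisiae genes, a shift of each array to a common S. pombe median, S. cerevisiae median or mean of 36 poly-A spike-in probe sets, the mean of a gene's probe sets, and each array left out in turn.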

Additional observations from a re-analysis of the deposited data

Results flagged for a closer look

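In 3 of the 30 sets of 5 arrays (10 members in 3 groups) 1 array stood far from the other 4, by a gap of more than 0.71 of the range of its group, where chance gives about 1 in 20. ADH3 read 12.65 on WT low density replicate 1, with the next highest array at 12.15. SFA1 read 9.45 on Rho0 low density replicate 1, with the next highest at 9.04. ADH6 read 10.48 on Rho0 low density replicate 4, with the next lowest at 10.58. Leaving out any single array moved the ADH3 difference between Rho0 low density and WT low density within -0.79 to -0.63 log2.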

How the results depend on the processing

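Over 720 alternative values of the 30 member differences, 683 kept their side of the threshold. Of the called differences 1 turned in sign: ADH7 in Rho0 low density against WT low density was 0.000558 at the same poly-A spike-in mean. Small differences that were not called could turn in sign as well. For ADR1, WT low density minus WT high density ran from -0.12 to 0.07 with 1 array left out. The ADH2 differences kept their calls under every alternative run, and leaving out 1 array gave -6.96 to -6.78, -1.37 to -1.26 and -8.28 to -8.10 in the 3 comparisons. Counts of called members moved with the scaling. In Rho0 low density against WT low density, members called higher were 1 after quantile normalization, 1 at the same S. cerevisiae median and 4 at the same spike-in mean, where 3 were lower. In Rho0 low density against WT high density, members called higher were 6 at the same spike-in mean and 2 to 5 with 1 array left out. Of all calls, 66.3%, 38.9% and 52.4% were higher in the 3 comparisons, against 54.4%, 49.7% and 51.1% after quantile normalization, 49.3%, 46.7% and 45.2% at the same S. cerevisiae median, and 89.5%, 26.3% and 72.7% at the same spike-in mean. These scalings moved the median of all genes by -0.20, 0.17 and -0.01, by -0.26, 0.12 and -0.14, and by 0.68, -0.23 and 0.45. A shift of whole arrays leaves the ADH2 minus isoenzyme values as they are by construction. The replicate numbers were not taken to pair the samples, since not every pair of same-numbered arrays correlated above 0.1 in its deviations from group means: 2 of 5 pairs did in Rho0 low density and WT low density (-0.05 to 0.34), 4 of 5 in WT low density and WT high density (0.04 to 0.37) and 2 of 5 in Rho0 low density and WT high density (-0.03 to 0.25). Of the 15 arrays, 7 correlated best with their own number, and a partial pairing is possible. For ADR1 and SFA1, though not for every member, replicates 1 and 2 read highest in all 3 groups. The main fit takes no account of such shared variation. With the replicate block, 5 members were called higher in Rho0 low density against WT high density, among them ADH3 (adjusted p = 0.0356) and SFA1 (0.0228). The count of isoenzymes with a change unlike ADH2 was 0 in all 3 comparisons under the block, since an exact sign-flip test of 5 pairs cannot go below p = 0.0625, so that this test is void. Signals near the background level and near the top of the scale, and cross-binding of paralogs, limit what these arrays show.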

Other observations

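The genes next to the members were measured for 16 of 20 possible neighbours. YME2, next to ADH2, was at -0.02 ± 0.13 in Rho0 low density minus WT low density, -0.06 ± 0.13 in WT low density minus WT high density and -0.08 ± 0.13 in Rho0 low density minus WT high density (log2 ± SE in limma, adjusted p from 0.577 to 0.894). UBP15, on the other side of ADH2, was higher in Rho0 low density than in WT low density (1.57 ± 0.19, adjusted p = 5.3e-07) and lower in WT low density than in WT high density (-1.29 ± 0.19, 6.18e-06). UBP15 was not called between Rho0 low density and WT high density (0.28 ± 0.19, adjusted p = 0.184).

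YOR389W, next to FDH1, was higher in Rho0 low density than in WT low density (0.51 ± 0.11, adjusted p = 0.000474), lower in WT low density than in WT high density (-0.95 ± 0.11, 3.98e-07) and lower in Rho0 low density than in WT high density (-0.45 ± 0.11, 0.00122). YOR387C, on the other side of FDH1, lay under the background level in both WT groups and was higher in Rho0 low density by at least 1.13-fold (adjusted p = 0.0166 against WT low density and 0.00223 against WT high density). FET4, next to ADH6, was lower in Rho0 low density than in WT low density (-0.47 ± 0.12, adjusted p = 0.00231), higher in WT low density than in WT high density (2.27 ± 0.12, 2.11e-11) and higher in Rho0 low density than in WT high density (1.80 ± 0.12, 1.6e-10). YMR317W, on the other side of ADH6, was lower in Rho0 low density than in WT low density (-1.22 ± 0.14, adjusted p = 2.96e-07), higher in WT low density than in WT high density (0.82 ± 0.14, 3.84e-05) and lower in Rho0 low density than in WT high density (-0.40 ± 0.14, 0.0134). Both neighbours are given for ADH2, FDH1 and ADH6, the members with the widest spans of group means.

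The arrays also hold probe sets for alcohol dehydrogenase genes of fission yeast, which is not in these samples. Its adh1 probe set read 1.92 to 2.77 and its adh4 probe set 1.94 to 2.37 over the 15 arrays.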
